A study of Mus musculus with 8 samples.

Results

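The comparison described here is that of GW4064 added on top of glucagon: 2 arrays of hepatocytes that received 100 nM glucagon and 2 µM GW4064 for 6 h, set against 2 arrays of hepatocytes that received 100 nM glucagon alone for 6 h. These 4 arrays, of 8 in all, were chosen by their labels, and the labels also number 2 experiments, so that each array with both agents has a partner with glucagon alone from the same experiment. The cells were primary hepatocytes of male C57Bl6J mice, kept in low-glucose medium with 100 nM dexamethasone, a synthetic glucocorticoid that all groups shared. Each experiment used cells pooled from 3 mice, so n = 2 pools per group, and no single animal can be followed. The other 4 arrays, 2 with DMSO (the solvent) and 2 with 2 µM GW4064 alone for 6 h, do not enter the difference itself. They contributed to the estimate of the spread and are given beside it for reference. The series title places the work in the question of how the bile acid receptor FXR acts in the fasting liver. This comparison asks what an FXR agonist adds when it is given together with glucagon. The array titles give 6 h for the combined treatment and no order of addition.

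Glucagon is the fasting hormone of the pancreas. Its receptor on hepatocytes raises cyclic AMP, which activates protein kinase A (PKA), and the kinase phosphorylates the transcription factor CREB, which turns on genes of glucose production such as Pck1 and G6pc. GW4064 is a small molecule, not a bile acid, that activates FXR, the farnesoid X receptor. FXR, encoded by Nr1h4, is a nuclear receptor that binds bile acids and pairs with the retinoid X receptor on DNA. In the liver FXR is known for raising bile acid export, for raising the small heterodimer partner Nr0b2, a repressor of transcription, and for lowering bile acid synthesis and uptake.

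Large differences between both agents and glucagon alone were seen for few genes, and with 2 pools per group smaller ones could be missed. A probe set outside the gene tests, annotated with both Slc51b and Rasl12, differed by 2.36 on the log2 scale and is described in the closing section. Mybl1, a transcription factor of the MYB family, was 4.18-fold higher with both agents than with glucagon alone, the largest difference of any gene tested. The genes for the pregnane X receptor (Nr1i2), the acyl-CoA thioesterase Acot5, the oxidative stress-induced growth inhibitor Osgin1 and the drug exporter Abcb1a were 1.91 to 2.25 times higher. Acnat2 and Baat, nearby genes for enzymes that join acyl groups to amino acids, were lower at 0.574 and 0.723 times the glucagon level. The central genes of glucose production stayed near the level that glucagon alone gave: the difference was 0.09 for Pck1 and -0.06 for G6pc on the log2 scale. All differences below are on that scale, with glucagon alone subtracted from both agents, and array values are log2 signals.

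The 13845 genes were tested with limma, with the spread taken from all 8 arrays and without the pairing by experiment. At an adjusted p of 0.05, 0 genes passed (0% of those tested, smallest adjusted p 0.999941). An unadjusted p below 0.05 was found for 90 genes, 0.65%, 47 of them higher and 43 lower. If no gene differed, 692 would be expected at that level, so the 0 calls of this fit do not show that no gene changed. With only the 4 arrays compared, paired by experiment, limma called 7 genes, or 0.0506%: Mybl1, Acot5, Osgin1, Mir101c, Zfp972 and Astx5 rose and Acnat2 fell. That paired fit had 1023 genes with an unadjusted p below 0.05. It has 1 residual degree of freedom, so it leans on the spread borrowed from other genes (8.06 prior degrees of freedom). On simulated data this fit made more false calls than its adjusted p-values allow, so those printed below do not hold their nominal level. Its count was 1 after quantile normalization (Mybl1), 101 with a trended and robust prior, and 0 when all probe sets were tested. Below, "the paired fit" means this one, and "rose" and "fell" are used for its 7 calls alone.

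In size, 12 genes (0.0867%) were above 0.5 in both experiments, 3 (0.0217%) were below -0.5 in both, and 3 had a mean difference over 1 in either direction. Mybl1, Nr1i2, Acot5, Abcb1a, Osgin1, Astx5, Mir101c, Zfp972, Alpl, Il22ra1 and 2 predicted genes made up the 12, and Acnat2, Klk1b24 and Tagap1 the 3. Tagap1 was at 3.61 and 3.54 with glucagon and at 2.90 and 3.02 with both agents. The values with both agents lie below the level of the filter on dim probe sets (3.14 and 3.17 on those arrays), so that difference ends at a level not above the filter. Acot5, Astx5, Mir101c, Zfp972, Alpl and Tagap1 lie outside the rule for naming genes: they were chosen after their values were seen. Across all genes the differences of the 2 experiments were nearly unrelated (Pearson r = 0.0993, Spearman rho = 0.0691, across genes, which are not independent replicates), and 52.5% of genes had the same sign in both. The SD of the difference over genes was 0.168 in experiment 1 and 0.184 in experiment 2, against 0.383 and 0.294 for glucagon minus DMSO. The median 95% interval of a gene reached 0.399 to either side, in the 8-array fit, which does not use the pairing. The median half-width was 0.325 with the experiment as a block and 0.215 in the paired fit. The intervals printed for single genes come from the unpaired fit, and are wide where the experiments differ in level.

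**Figure D1:**
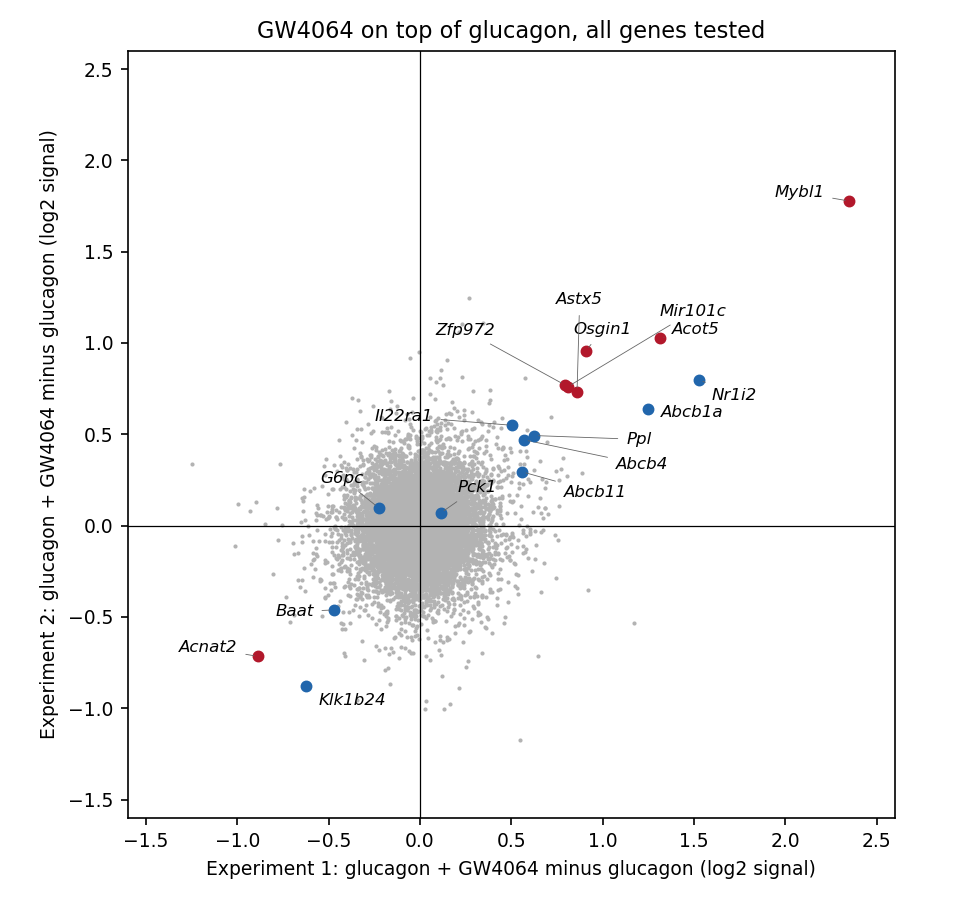
Each point is 1 of the 13845 genes: its log2 difference, both agents minus glucagon alone, in experiment 1 (x axis) and in experiment 2 (y axis). Red points are the 7 genes called in the paired fit and blue points are other genes named in the text. Mybl1 lies alone at 2.35 and 1.78, while Pck1 and G6pc lie within the central cloud.

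FXR is known to bind an inverted repeat of the half-site AGGTCA spaced by 1 base, IR-1, written AGGTCANTGACCT. The promoters of genes the results turn on were read for it in RefSeq (GRCm38.p6), in the 250 bases before the annotated start, and every position was scored by its mismatches to those letters. The motif reads the same on both strands. It is shown here for the bile salt exporter Abcb11 and for 3 genes with large differences, with the best match in capitals and 20 bases (fewer at the window's edge) to either side:
Abcb11: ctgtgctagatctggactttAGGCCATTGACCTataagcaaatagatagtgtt
Osgin1: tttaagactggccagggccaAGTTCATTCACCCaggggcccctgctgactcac
Nr1i2: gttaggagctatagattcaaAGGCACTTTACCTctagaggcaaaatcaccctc
Acot5: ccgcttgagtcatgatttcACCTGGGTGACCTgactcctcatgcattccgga
The Abcb11 stretch lies at chr2:69342647-69342699 on the minus strand and differs from the motif by T4C (position 4, counted from the motif's 5′ end), with the match starting 63 bases before the start. The Osgin1 stretch, at chr8:119437005-119437057 on the plus strand, has 3 mismatches (G3T, G9C and T13C). Those of Nr1i2 (chr16:38295022-38295074, minus strand) and Acot5 (chr12:84069074-84069125, plus strand) have 4 each.

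Of 32851 promoter windows of that length, 0.0791% held a match with at most 1 mismatch, 0.959% with at most 2, 9.63% with at most 3 and 50% with at most 4. The matches of Nr1i2 and Acot5 are thus no closer than those of a typical window, and Abcb11 was the only gene of the 12 searched to come within 1 mismatch. The others searched were Abcb4, Nr0b2, Il22ra1 and G6pc with 4 mismatches, Acnat2, Abcb1a and Pck1 with 5, and Slc51b with 3. Mybl1 and Baat had no entry. Among the 10 tested genes with at most 1 mismatch, the median difference was 0.04, with 4 positive and 2 negative in both experiments. The largest differences of these 10 were close together: Abcb11 had 0.43, the ETS-family gene Etv3l 0.42 (0.18 and 0.65 in the experiments; SE 0.23), at a signal below the filter level with glucagon, and the retinol dehydrogenase Rdh9 had 0.38 (0.14 and 0.61 in the experiments; SE 0.16). Over all genes tested, 25.5% were positive and 27% negative in both experiments, and the median difference was -0.00.

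Among transcription factors, Mybl1 (probe set 17221158) stood out. MYB-family proteins drive cell-cycle and germ-cell genes. Its signal was 4.09 and 4.82 with glucagon in experiments 1 and 2, and 6.44 and 6.60 with both agents, so the groups did not overlap. With 2 arrays per group, groups that do not differ also often fail to overlap, so this is description only, here and below. The difference was 2.06 (SE 0.33, 95% interval 1.29 to 2.84, n = 2; limma unadjusted p = 0.000404, adjusted p = 0.999941 over 8 arrays), and in the paired fit the adjusted p was 0.00105. Without glucagon the signal was 5.003 and 5.25 with DMSO and 7.10 and 6.24 with GW4064. GW4064 thus differed from its own control by 2.10 and 0.99 there, against 2.35 and 1.78 on top of glucagon, and the interaction of 0.52 did not pass (limma unadjusted p = 0.301). The glucagon arrays held the lowest 2 of the 8 values.

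Of the 15 tested factors among MYB, E2F and MuvB complex genes, the multi-subunit cell-cycle regulator, Mybl1 was the only one called in the paired fit, and 0 were called over 8 arrays. The relative Mybl2, a proliferation gene, was at 3.01 or below on the glucagon arrays and at 2.97 and 3.07 with both agents, below the level of the filter on dim probe sets, which lay at 3.14 to 3.17 on these arrays. Lin9 and Lin54, subunits of MuvB, differed by 0.16 (SE 0.19) and 0.17 (SE 0.13). Myb, Foxm1 and E2f2 did not pass that filter. In the proliferation list 10 of 20 genes were tested and 0 called. Ccne1, cyclin E1, had the largest value there, at 0.30 (SE 0.26), and 8 others, among them Mki67, Top2a, Cdk1 and Plk1, were below the filter.

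Nr1i2 (probe set 17330323) encodes the pregnane X receptor (PXR), which senses drugs and bile acids. Its signal was 6.58 and 7.33 with glucagon and 8.11 and 8.13 with both agents, so that both arrays of the combined treatment were above both glucagon arrays. The difference was 1.16 (SE 0.31, 95% interval 0.44 to 1.89), 1.53 in experiment 1 and 0.80 in experiment 2. The adjusted p was 0.0526 in the paired fit, so it was not called. With DMSO it was at 5.97 and 6.62 and with GW4064 alone at 7.30 and 6.89, which placed the combined treatment above every array of the other 3 groups. Of the 28 receptor and coregulator genes tested, Nr1i2 included, 13 were positive and 6 negative in both experiments, with a median of 0.06. The next highest was the coactivator gene Ppargc1a at 0.46, described with the cyclic AMP response. Nr1h4, the gene of FXR itself, differed by -0.15 (SE 0.21), from 5.91 and 6.12 to 5.81 and 5.92. Rxra, a partner of FXR on DNA, differed by -0.10 (SE 0.18), and the heme receptor Nr1d2 by 0.30 (SE 0.20).

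Of the genes that PXR and its relative CAR are known to induce, 20 were tested. In this list 0 were called in either fit, 8 were positive and 8 negative in both experiments, and the median was 0.03. Cyp3a11 and Cyp2b10, their classical cytochrome P450 targets, had high signals and differed by -0.06 (SE 0.22) and -0.11 (SE 0.12). Cyp3a25 differed by 0.67 (SE 0.46), of which 0.23 came in experiment 1 and 1.10 in experiment 2, Cyp2c55 by 0.44 (SE 0.23) and Cyp2c37 by 0.37 (SE 0.23). Abcb1a (probe set 17434524), a P-glycoprotein that exports drugs, had the largest difference of the list. It was at 4.42 and 4.61 with glucagon and 5.66 and 5.25 with both agents, a difference of 0.94 (SE 0.37, 95% interval 0.07 to 1.82; limma unadjusted p = 0.0378, adjusted p = 0.0811 in the paired fit). GW4064 alone gave Abcb1a 5.47 and 4.34 against 5.39 and 4.85 with DMSO, differences of 0.07 and -0.51 that had no common sign.

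**Figure D2:**
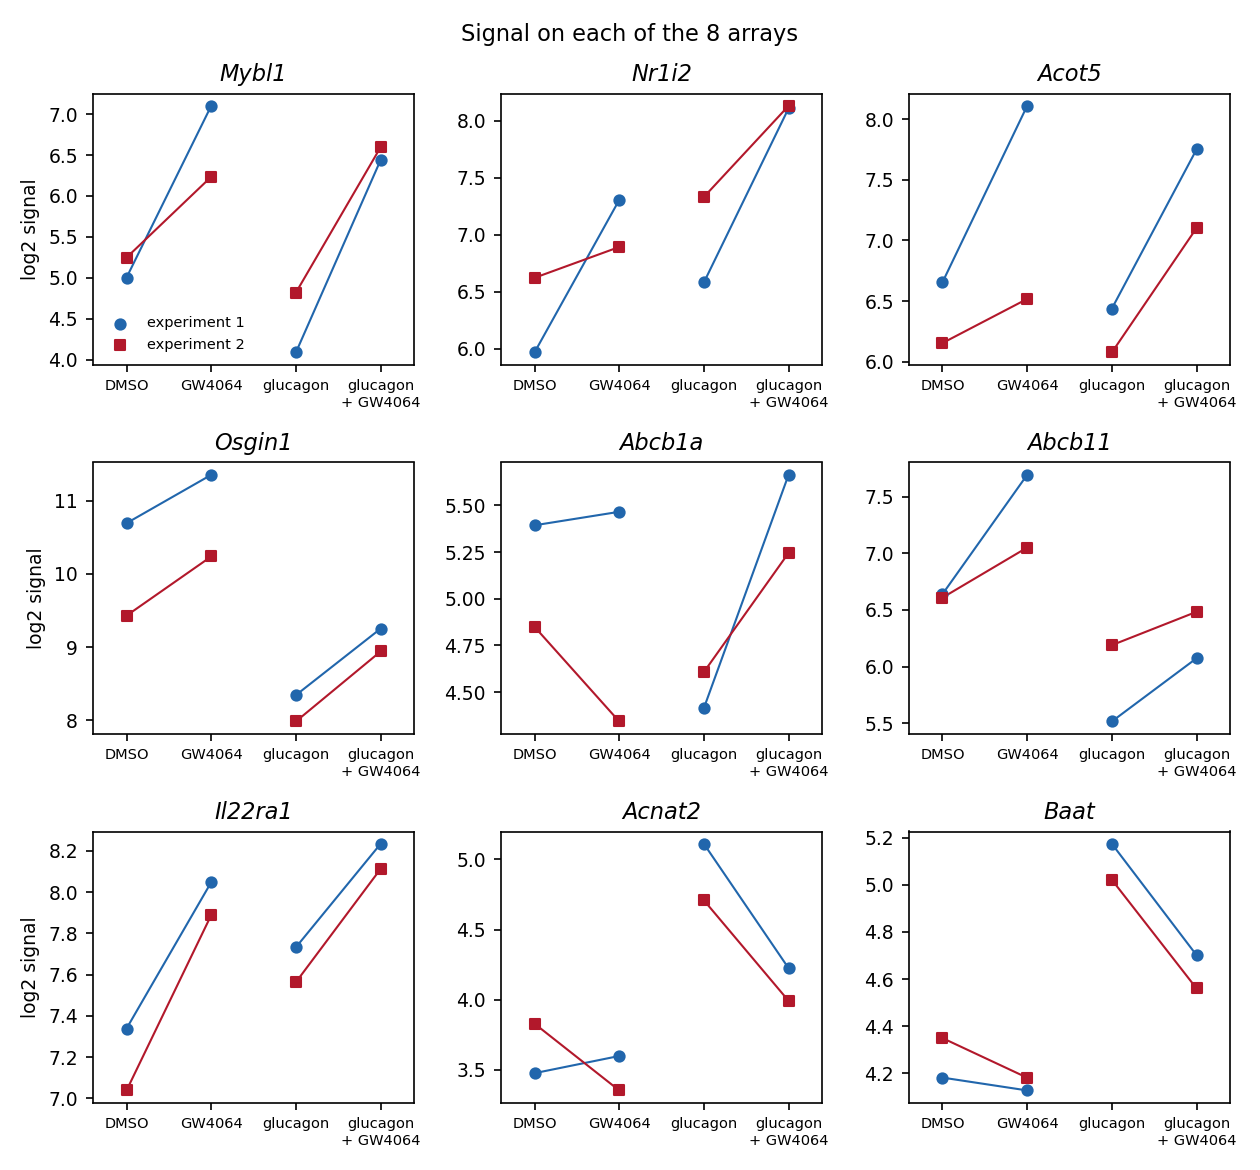
Log2 signal (y axis) of 9 genes on each of the 8 arrays by treatment (x axis); blue circles are experiment 1, red squares experiment 2, and lines join GW4064 to its control in the same experiment. Axes differ between panels. Both lines on the right-hand side slope upward for Mybl1, Nr1i2, Acot5, Osgin1, Abcb1a, Abcb11 and Il22ra1, and downward for Acnat2 and Baat.

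Genes that FXR is known to induce showed a handful of positive differences at the top of a list that was otherwise centred on 0. Of 32 such genes 27 were tested. None was called over 8 arrays and 1, Osgin1, in the paired fit. The signs were positive in both experiments for 10 and negative for 8, and the median was -0.00, the same as over all genes to 2 decimals. Osgin1 (probe set 17506081), which restrains growth under oxidative stress, rose from 8.34 and 7.98 with glucagon to 9.25 and 8.94 with both agents. The difference was 0.93 (SE 0.48, 95% interval -0.20 to 2.06) and was alike in both experiments, 0.91 and 0.96, with an adjusted p of 0.0147 in the paired fit. The arrays without glucagon were all higher, at 10.69 and 9.43 with DMSO and 11.36 and 10.24 with GW4064. So both agents together left Osgin1 below the DMSO arrays, and the increments of GW4064 alone, 0.66 and 0.81, were near those on top of glucagon.

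The canalicular exporters came next. Abcb4, which moves phospholipid into bile, was at 7.10 and 7.12 with glucagon and at 7.67 and 7.59 with both agents, a difference of 0.52 (SE 0.23, 95% interval -0.02 to 1.06). Those groups did not overlap. Abcb11, the bile salt export pump, was at 5.52 and 6.19 with glucagon and 6.07 and 6.48 with both agents. Here the groups overlapped, because the experiments started from different levels, and the difference was 0.43 (SE 0.29, 95% interval -0.26 to 1.11). The DMSO arrays of Abcb11 were at 6.64 and 6.61, above all 4 arrays with glucagon. Nr0b2 was at 3.63 on both glucagon arrays and at 3.94 and 3.87 with both agents, a difference of 0.27 (SE 0.17) at a dim level. GW4064 alone differed from DMSO by 0.74 and 0.64 in experiments 1 and 2 for Abcb4. The same values were 1.05 and 0.44 for Abcb11, and 0.70 and 0.13 for Nr0b2. Abcc2, an exporter of conjugates, differed by 0.21 (SE 0.19), and Insig2, which holds sterol regulators in the endoplasmic reticulum, by 0.16 (SE 0.32).

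At the other end of the list were Kng1, the kininogen gene, at -0.16 (SE 0.17), and the lipoprotein genes Vldlr at -0.16 and Apoc2 at -0.09. The last 2 were named after their values were seen. The fibrinogen genes Fga, Fgb and Fgg, which have been described as FXR targets in human cells, differed by -0.03, 0.02 and -0.05. Slc51a and Foxm1 were below the filter, C3 and Akr1b7 had no probe set with that symbol in the annotation used here, and Slc51b had a probe set with several symbols only, which is described in the closing section.

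**Figure D3:**
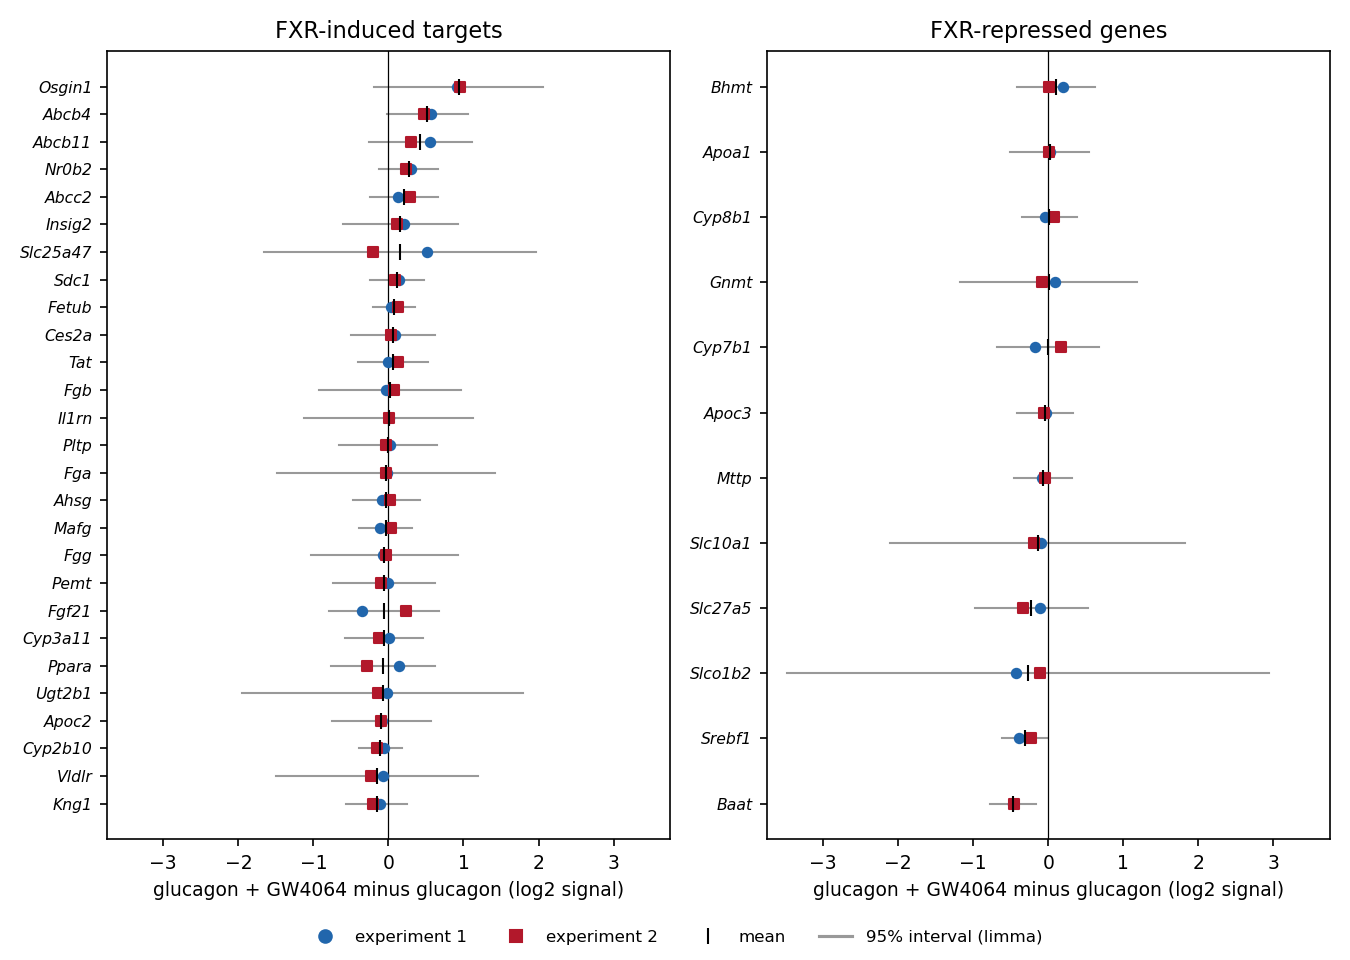
Differences, both agents minus glucagon alone (x axis, log2 signal), for the tested members of the FXR-induced list (left) and the FXR-repressed list (right), ordered by their mean. Blue circles are experiment 1, red squares experiment 2, black ticks the mean, and grey lines limma's 95% interval over 8 arrays. Osgin1, Abcb4 and Abcb11 lead the left panel, and Srebf1 and Baat, at the foot of the right panel, have intervals below 0.

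In the list drawn up as FXR-repressed genes, 12 of 14 were tested and 0 were called in either fit. Of these, 7 were negative and 2 positive in both experiments (median -0.06). Baat and Slc27a5, genes of bile acid conjugation, were counted in this list and are among the 7. Whether FXR lowers or raises them was not tested, so their negative differences are not read as repression by FXR. The lowest was Baat (probe set 17425221), the enzyme that joins bile acids to taurine or glycine. Its signal was 5.17 and 5.02 with glucagon and 4.70 and 4.56 with both agents, and the groups did not overlap. The difference was -0.47 (SE 0.13, 95% interval -0.77 to -0.16; adjusted p = 0.259 in the paired fit). Srebf1, the master regulator of fatty acid synthesis genes, was at 5.71 and 5.74 with glucagon and 5.33 and 5.50 with both, a difference of -0.31 (SE 0.13, 95% interval -0.61 to -0.01). Cyp8b1, which sets the share of cholic acid, was close to the filter level throughout and differed by 0.01 (SE 0.16), and Cyp7a1, which sets the rate of bile acid synthesis, did not pass the filter. The bile acid importer Slc10a1 differed by -0.14 (SE 0.83) and Slc27a5, which activates bile acids for conjugation, by -0.22 (SE 0.32). Their wide errors went with a large difference between the experiments: Slc10a1 was at 6.45 and 7.73 on the glucagon arrays.

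Acnat2 (probe set 17425202), an acyl-CoA:amino acid N-acyltransferase related to Baat, fell from 5.11 and 4.71 with glucagon to 4.23 and 3.99 with both agents. The difference was -0.80 (SE 0.20, 95% interval -1.27 to -0.33; adjusted p = 0.0312 in the paired fit), the lowest of any gene tested. In RefSeq, Acnat2, its relative Acnat1 and Baat lie close together on chromosome 4, with 7 entries listed between Acnat2 and Baat, of which only Acnat1 was tested here. The differences of Acnat1 were -0.33 and 0.33 in the experiments. Being a close relative of Acnat2, it can share signal with it on the array. Both Acnat2 and Baat were near their lowest without glucagon, at 3.48 and 3.83 for Acnat2 and 4.18 and 4.35 for Baat with DMSO. The arrays with both agents therefore lay between the DMSO and the glucagon arrays for both genes. The difference from glucagon and that of glucagon against DMSO share the glucagon arrays, so this position is description only. With GW4064 alone, Acnat2 was at 3.60 and 3.35 and Baat at 4.13 and 4.18, close to DMSO, and the interactions of -0.62 for Acnat2 and -0.36 for Baat did not pass (limma unadjusted p = 0.0626 and 0.0937).

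Acot5 (probe set 17277161), a peroxisomal acyl-CoA thioesterase, rose from 6.44 and 6.08 with glucagon to 7.75 and 7.10 with both agents. The difference was 1.17 (SE 0.50, 95% interval -0.01 to 2.35; adjusted p = 0.00863 in the paired fit), and it was positive in both experiments, 1.31 and 1.03. Acot5 belongs to a cluster of similar genes, so its probe set may read more than 1 of them. Of those tested, Acot2, the mitochondrial member, differed by 0.30 (SE 0.41) and Acot4 by -0.00, while Acot1 and Acot3 were below the filter. Over the 8 tested genes of conjugation and acyl transfer, 2 were positive and 3 negative in both experiments. The 12 tested genes of bile acid synthesis lay within a narrow band, from -0.14 for Cyp39a1 to 0.07 for Acox2, with 0 called in either fit.

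In the list of bile acid and organic anion transport 16 of 20 genes were tested and 0 were called in either fit. It held 7 genes positive and 6 negative in both experiments, and its median was 0.00. Abcb1a and Abcb4, which RefSeq lists in 1 neighbourhood of chromosome 5 with 3 entries between them, had the highest differences. The entries between them include Abcb1b, a relative of Abcb1a. Whether the Abcb1a probe set also reads Abcb1b was not tested. Slco2b1, an organic anion importer, was at 5.79 and 5.65 with glucagon and 6.22 and 6.07 with both agents, a difference of 0.43 in each experiment (SE 0.17, 95% interval 0.04 to 0.82). With GW4064 alone it differed from DMSO by 0.15 and -0.44. The importers Slco1b2, Slco1a1 and Slco1a4 were negative in both experiments, at -0.27, -0.19 and -0.14; they lie outside the naming rule. Atp8b1, a lipid flippase of the canalicular membrane, differed by 0.10 in the same list (SE 0.17).

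The glucagon-driven programme of glucose production was the next object of the comparison. Pck1, cytosolic phosphoenolpyruvate carboxykinase, was at 9.28 and 9.51 with glucagon and 9.39 and 9.58 with both agents, against 3.49 and 4.79 with DMSO. G6pc, which frees glucose from its phosphate, was at 10.39 and 9.79 with glucagon and 10.16 and 9.89 with both agents. The groups overlapped for both genes. In the unpaired 8-array fit the 95% interval of the difference was -0.83 to 1.01 for Pck1 and -0.56 to 0.43 for G6pc. The spread behind the Pck1 interval includes the DMSO arrays (SD 0.91, against 0.16 with glucagon and 0.13 with both agents). By experiment the differences were 0.11 and 0.07 for Pck1 (SE 0.093 in the paired fit). For G6pc they were -0.23 and 0.10 (SE 0.107 in the paired fit). Fbp1, fructose bisphosphatase, went from 7.55 and 7.95 to 7.78 and 8.16, a difference of 0.22 (95% interval -0.58 to 1.02) that was alike in the experiments at 0.24 and 0.21.

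Over the 21 tested genes of gluconeogenesis and glucose release, 0 were called in either fit, 5 were positive and 11 negative in both experiments, and the median was -0.06. The mitochondrial glutamate carrier Slc25a22 was lowest at -0.20 (SE 0.13), with values of -0.19 and -0.21. The transaminases Gpt2 and Got1 differed by -0.11 each (SE 0.12 and 0.14), and the ornithine carrier Slc25a15 by 0.15 (SE 0.13). Among glycolytic and glycogen genes, 3 of 20 were positive and 9 negative in both experiments. Pklr, the liver pyruvate kinase and a glycolytic counterpart of Pck1, differed by 0.09 (SE 0.21, 95% interval -0.40 to 0.58), and Hk1 by -0.33 (SE 0.27), most of it from experiment 2.

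**Figure D4:**
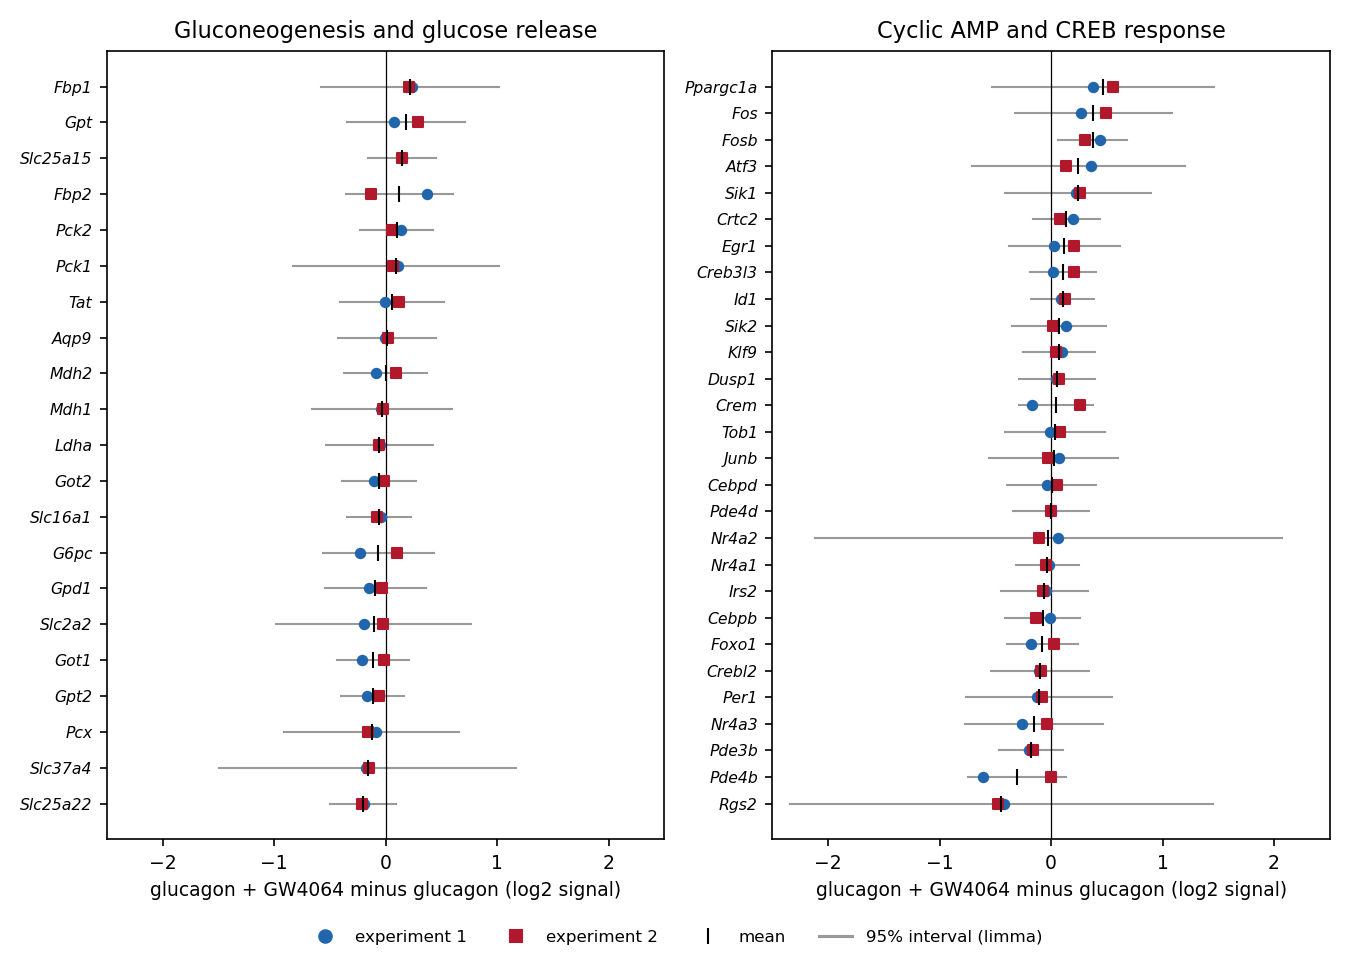
Differences, both agents minus glucagon alone (x axis, log2 signal), for the tested genes of gluconeogenesis and glucose release (left) and of the cyclic AMP and CREB response (right), ordered by their mean. Blue circles are experiment 1, red squares experiment 2, black ticks the mean, and grey lines limma's 95% interval over 8 arrays. On the left all means lie between -0.20 and 0.22, and on the right Ppargc1a is highest at 0.46.

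The cyclic AMP response divided in the same loose way. Ppargc1a, the coactivator PGC-1 alpha that drives gluconeogenic and mitochondrial genes, was at 6.54 and 7.03 with glucagon and 6.91 and 7.59 with both agents. Its difference of 0.46 (SE 0.42, 95% interval -0.53 to 1.46) was positive in both experiments, 0.38 and 0.55, but the groups overlapped and the adjusted p in the paired fit was 0.259. The immediate early genes Fos and Fosb had fitted differences of 0.38 (SE 0.30) and 0.37 (SE 0.13). For Fosb both glucagon arrays (2.73 and 2.94) lay below the filter level and the arrays with both agents (3.17 and 3.24) just above it, so that difference starts from a level not above the filter. Fos was below it on 1 array of each group. Atf3, a stress-responsive factor, differed by 0.24 (SE 0.41). Nr4a1, an early cyclic AMP target, was at 6.26 and 6.38 with glucagon and 6.24 and 6.33 with both agents, a difference of -0.03 (95% interval -0.32 to 0.25). Crem, a CREB relative, differed by 0.04 (SE 0.14). The phosphodiesterases Pde4b and Pde3b, which break down cyclic nucleotides, differed by -0.31 (SE 0.19) and -0.18 (SE 0.12). For Pde4b the whole of it came from experiment 1. The lowest value was that of Rgs2, a brake on G protein signalling that lies outside the naming rule. It was at 7.99 and 8.86 with glucagon and 7.57 and 8.39 with both agents (-0.45, SE 0.80; -0.42 and -0.47 in the experiments; adjusted p = 0.259 in the paired fit), against 4.09 and 5.94 with DMSO. In all, 28 of these genes were tested, 12 were positive and 10 negative in both experiments, 0 were called in either fit, and the median was 0.03.

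Upstream of these genes, the 15 tested members of the glucagon receptor and PKA cascade had a median of -0.02, with 3 positive and 6 negative in both experiments and 0 called in either fit. Gcgr, the glucagon receptor, differed by 0.08 (95% interval -0.37 to 0.52), Prkaca, a catalytic subunit of PKA, by -0.02 (95% interval -0.55 to 0.52), and Creb1 by -0.02 (95% interval -0.30 to 0.26). Foxa2, a liver transcription factor that opens chromatin at fasting genes, was at 6.62 and 6.55 with glucagon and at 6.81 and 6.34 with both agents. Its difference was 0.19 in experiment 1 and -0.21 in experiment 2 (mean -0.01, 95% interval -0.41 to 0.38). Of 19 tested liver transcription factors, 0 were called in either fit, 2 were positive and 7 negative in both experiments. Onecut1 and Foxa1, both hepatocyte identity factors, differed by -0.16 (SE 0.20) and -0.13 (SE 0.24).

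To see how GW4064 moved glucagon-responsive genes as a group, without the glucagon arrays serving on both sides, genes were chosen in 1 experiment and read in the other. The 50 genes that glucagon raised most over DMSO in experiment 1 had a median difference of -0.05 in experiment 2 when GW4064 was added, 18 positive and 32 negative. The 50 chosen in experiment 2 had a median of -0.18 in experiment 1, 11 positive and 39 negative. Over all genes 50.9% were positive in experiment 2 and 47.6% in experiment 1. The 50 genes that glucagon lowered most had medians of 0.05 in both directions of the exercise, 31 and 32 of them positive. No test was made of these counts. For single genes, the difference from glucagon and the effect of glucagon against DMSO share the glucagon arrays, so a high or low glucagon array enters both with opposite signs. No correlation between them is given, and where single genes are placed against the DMSO arrays, that is description only.

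A cytokine receptor gene and a ligand-receptor pair were among the genes of common sign with the smallest p-values. Il22ra1, a subunit of the interleukin 22 receptor on hepatocytes, was at 7.73 and 7.56 with glucagon and 8.23 and 8.11 with both agents, a difference of 0.53 (SE 0.15, 95% interval 0.17 to 0.88). GW4064 alone gave 0.71 and 0.85 over DMSO, so the 4 increments had 1 sign. The ectodysplasin ligand gene Eda and the gene Eda2r, a receptor for 1 of its isoforms, were both higher with both agents. Eda2r was at 5.57 and 5.60 with glucagon and 5.91 and 6.17 with both (0.45, SE 0.13), and Eda at 3.22 and 3.17, near the filter level, and 3.58 and 3.64 (0.42, SE 0.13). With GW4064 alone Eda2r differed from DMSO by -0.08 and -0.01 and Eda by -0.32 and -0.02. The interactions, 0.49 for Eda2r and 0.59 for Eda, had unadjusted p-values of 0.0342 and 0.0152 in limma and did not pass after adjustment.

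Other genes with small p and positive values were Ppl, the cytolinker periplakin (0.56, SE 0.18; GW4064 alone 0.78 and 0.74), Gprc5c, an orphan receptor (0.38, SE 0.12; GW4064 alone 0.48 and 0.64), and Cdnf, a neurotrophic factor of the endoplasmic reticulum (0.40, SE 0.11). On the negative side were Klk1b24, a kallikrein-related peptidase (-0.75, SE 0.23), Zfp959 (-0.56, SE 0.18) and Zfp772 (-0.46, SE 0.14), both zinc finger genes, Tbc1d2 (-0.48, SE 0.14) and Ank3, ankyrin G (-0.43, SE 0.14). With both agents Tbc1d2 (3.21 and 3.16) and Ank3 (3.12 and 3.29) were near the filter level. Tbc1d2 was below it in experiment 2 and Ank3 in experiment 1. Of the 12 smallest p-values on each side, 4 positive and 5 negative ones belonged to predicted or chemosensory receptor genes and are counted only. None of these genes was called in either fit.

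The remaining 3 calls of the paired fit were dim or belong to multicopy families. Zfp972, a zinc finger gene, rose from 5.38 and 4.75 to 6.17 and 5.52, a difference of 0.78 (SE 0.28) with an adjusted p of 0.0312 in the paired fit. Astx5, a gene of an amplified family on the X chromosome, rose from 4.52 and 4.42 to 5.37 and 5.15 (0.80, SE 0.31, adjusted p = 0.0312 in the paired fit). Mir101c was at 3.14 and 2.77 with glucagon and 3.95 and 3.53 with both agents. Both glucagon arrays and both DMSO arrays (2.68 and 2.80) lay below the filter level, so it passed the filter through arrays with GW4064 alone or with both agents. Its fitted difference of 0.79 (SE 0.30, adjusted p = 0.0312 in the paired fit) starts from a level not above the filter, so the call supports nothing further. RefSeq gives the mature miR-101c, at chr9:3038680-3038698 on the minus strand, with its seed in capitals (bases 2 to 8 of 19), to show which small RNA the symbol names:
mmu-miR-101c: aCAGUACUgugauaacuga
The array was hybridised with labelled DNA made from total RNA, and whether the probe set read the mature form or a longer transcript of the locus was not tested.

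Lipid, stress and secretory gene groups showed small medians and no calls over 8 arrays. Cholesterol synthesis genes ran in opposite directions in the experiments, with a median of -0.15 in experiment 1 and 0.13 in experiment 2 over 19 genes. Of these 1 was positive and 4 were negative in both, among them Pmvk, mevalonate phosphate kinase, at -0.29 (SE 0.16), and the lanosterol synthase Lss at -0.21 (SE 0.18). Of 20 lipogenic genes 9 were positive and 5 negative in both experiments (median 0.04), with the elongase Elovl6 at 0.32 (SE 0.29) and the acyltransferase Gpam at -0.16 (SE 0.16). Lpin1, a phosphatidate phosphatase outside the naming rule, had the largest difference of that list, -0.44 (SE 0.72; -0.45 and -0.44 in the experiments). Among 18 genes of fatty acid oxidation 3 were positive and 7 negative (median -0.04), and the peroxisomal thiolase Acaa1b had the highest value, 0.32 (SE 0.49). In the NRF2 oxidative stress list, 11 of 20 were positive and 4 negative (median 0.06). This list also holds Osgin1, its 1 call in the paired fit. The detoxifying enzymes Nqo1 and Gstm3 there differed by 0.26 (SE 0.20) and 0.44 (SE 0.33; 0.09 and 0.79 in the experiments).

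Among genes of secreted liver proteins the lists differed. Of 27 complement and coagulation genes 14 were negative and 1 positive in both experiments (median -0.05), and Masp1, a protease of the lectin pathway, was lowest at -0.21 (SE 0.29). Of 17 lipoprotein genes 12 were negative and 2 positive (median -0.06), with Apom, a carrier of sphingosine phosphate, at -0.21 (SE 0.19) and Apoc1 at -0.13 (SE 0.13). The median SE of a single gene was 0.169, which does not measure the spread of a list median. Of all genes 27% were negative in both experiments. No test of these lists was made, and their genes are not independent replicates. In amino acid breakdown and the urea cycle 11 of 26 were negative and 7 positive (median -0.05). Cps1, which makes carbamoyl phosphate for the urea cycle, differed by -0.15 (SE 0.12) and Ass1, which condenses citrulline with aspartate, by 0.28 (SE 0.27). The largest difference there was that of Tdo2, which opens tryptophan breakdown, at -0.38 (SE 0.67; -0.38 in each experiment), a gene outside the naming rule. Of 22 genes of insulin and growth hormone signalling 9 were negative and 3 positive (median -0.06), with Igf1, the growth factor that growth hormone induces, at -0.18 (SE 0.20). In the circadian list 7 of 17 were negative and 4 positive (median -0.03), with the repressor Cry2 lowest at -0.35 (SE 0.44; -0.38 and -0.32). Autophagy genes gave 10 negative and 5 positive of 25 (median -0.03), among them the kinase Ulk1 at -0.18 (SE 0.34). The acute phase list had 6 positive and 5 negative of 19 and a median of 0.01, with Hamp, the iron hormone hepcidin, lowest at -0.36 (SE 1.47; -0.52 and -0.20) and also outside that rule, and the ATF4 and unfolded protein response list 5 and 5 of 23 and a median of -0.01. In both fits 0 genes of the lists in this paragraph were called.

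The difference that GW4064 made was compared with and without glucagon, 2 differences that share no array. The interaction was called for 0 of 13845 genes (0%) by limma, with 149 at an unadjusted p below 0.05, and with the experiment as a block 0 were called and 332 had an unadjusted p below 0.05. Across genes the mean difference on top of glucagon correlated with that of GW4064 alone at r = 0.0555, or 0.126 when only experiment 1 supplied the arrays without glucagon and 0.00 when only experiment 2 did. The smallest unadjusted p-values were those of Lrrc61 (1.37, limma unadjusted p = 0.00158), Btbd35f2 and Defa34 on the positive side and of Ifi204, an interferon-inducible DNA sensor (-1.08, limma unadjusted p = 0.00466), Zfp493 and Efcab2 on the negative side. For both Lrrc61 and Ifi204 most of it came from GW4064 alone, -0.67 and -1.47 for Lrrc61 and 0.59 and 1.11 for Ifi204.

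Correlations among the 4 arrays were 0.991 to 0.997 over the genes tested, and the 15 hepatocyte markers on the array had median signals between 10.96 and 11.28, none at or below the filter level on any of the 4. Single markers differed between the experiments: Fabp1, a fatty acid binding protein of hepatocytes, was at 6.71 and 8.39 on the glucagon arrays of experiments 1 and 2, and the endothelial Lyve1 at 7.30 and 6.19. Macrophage, lymphocyte and neutrophil, stellate and cholangiocyte markers had median signals of 2.77 to 3.27. Single members of these lists were higher, such as Cd68 (macrophage) at 10.26 to 10.82, Cldn4 (cholangiocyte) at 7.48 to 8.01 and Reln (stellate) at 5.27 to 6.25. Endothelial markers were at 4.00 with glucagon and 4.06 with both agents in experiment 1, and at 3.60 and 3.25 in experiment 2, with 5 or 6 of 15 at or below the filter level. The summed log2 signal of the 15 was 62.6 and 57.4 with glucagon and 62.3 and 56.8 with both agents in experiments 1 and 2. Their part in the results was not tested. In bulk RNA fewer cells of a type and less RNA per cell cannot be told apart. The GW4064 array of experiment 2 had a median of 3.25 over chemosensory receptor genes against 2.95 to 2.98 on the other 7. It enters the spread of the 8-array test and every GW4064-alone value of experiment 2 above. Without it 0 genes were called, 179 had an unadjusted p below 0.05, and with the experiment as a block Mybl1 had an adjusted p of 0.0997.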

How the data were processed

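The authors hybridised RNA of 8 samples to Affymetrix MoGene 2.0 ST arrays and processed them in GeneSpring, per the labels, pooling 2 technical replicates per sample. The deposited values are log2 signals, a scale read from their range. How GeneSpring was set (version, background, summary of probes, scaling) is not given in the sources used here. No further normalization was applied. Of 41345 probe sets, the platform annotation gave 23521 one symbol. Kept were those above the 40th percentile of their array on at least 2 arrays. The brightest probe set stood for a gene, which left 13845 genes.

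limma 3.58.1 in R 4.3.3 was fitted with a mean per group over all 8 arrays (4 residual and 3.06 prior degrees of freedom), two-sided, with Benjamini-Hochberg adjustment over all genes. The labels give each experiment its own cell pool, so arrays of an experiment are paired: deviations from group means correlated at 0.350 to 0.620 in the 6 pairs of groups, and 0.620 between glucagon and both agents. Fits with the experiment as a block, and with the 4 arrays alone, were alternatives, as were other filters, scalings and left-out arrays. The steps were tested on simulated data, in which the 4-array paired fit made more false calls than its adjusted p-values allow. The number of arrays limits the precision.

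The arrays, gene lists, promoters and naming rule were chosen with earlier results of these data known. The rule took genes with an adjusted p under 0.05 in the 8-array fits, the 12 smallest p-values of common sign in each direction, up to 4 genes per list, a panel, and for the interaction the 3 smallest p-values in each direction. Predicted and chemosensory receptor genes were counted only. Each group has n = 2 pools. The SE printed are limma's moderated values, drawn from all 8 arrays and other genes, unless the paired fit is named. In the 8-array fit p-values measure the spread between pools within groups. The experiment term of the paired fit takes out the difference between pools, so its p-values do not measure that spread. SD are over genes or, for Pck1, over the 2 arrays of a group.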

Additional observations from a re-analysis of the deposited data

Results flagged for a closer look

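Probe sets to which the annotation gives several symbols or none were left out of the gene tests. Over all 27338 probe sets past the filter limma called 0 (449 with an unadjusted p below 0.05, smallest adjusted p 0.434), and 12699 of these had no single symbol. In both experiments, 12 of the latter differed by more than 1 upward and 7 by more than 1 downward. The 5 with an unadjusted p below 0.001 are given here because they lie outside the gene comparison.

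Probe set 17528249 is annotated with both Slc51b, a subunit of the bile acid exporter of the basolateral membrane and a known FXR target, and Rasl12, so its signal cannot be given to either gene. It was at 4.23 and 4.00 with glucagon and 6.39 and 6.56 with both agents, a difference of 2.36 (SE 0.22), larger than that of any named gene. DMSO gave 3.72 and 4.18 and GW4064 alone 5.92 and 5.52, and the adjusted p was 0.434 over all probe sets.

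The other 4 have no symbol. Probe set 17457158 differed by 2.08: it was at 4.41 and 4.68 with glucagon and 7.06 and 6.18 with both agents, while GW4064 alone (2.85 and 3.31) lay at the level of DMSO (2.88 and 3.26). Its interaction was 2.06 (limma unadjusted p = 0.00331, and not called after adjustment). Probe set 17200097 differed by -1.41, from 5.88 and 6.05 to 4.49 and 4.62, and GW4064 alone gave -0.59 and -0.71 over DMSO. Probe set 17203995 differed by 1.22, from 4.21 and 4.38 to 5.52 and 5.51, levels close to the DMSO arrays at 5.36 and 5.42. Probe set 17205345 differed by 1.13, from 4.62 and 4.64 to 5.66 and 5.86, while GW4064 alone differed from DMSO by -0.55 and -0.84.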

How the results depend on the processing

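The count of 0 genes over 8 arrays stayed at 0 with the experiment as a replicate block (194 with an unadjusted p below 0.05), as a random block, with quantile or median scaling, other filters, all probe sets, a trended and robust prior, and without each array in turn. Only the 4 arrays compared gave 0 without a block and 7 with the replicate block for the pairing, and the block changed no other call. That count of 7 became 1 with quantile normalization, 0 over all probe sets and 101 with a trended and robust prior, alternatives chosen after seeing the data; the cause was not tested. It was 7 without a filter and 6 with the 60th percentile or the mean of probe sets. Leaving out an array of the 4 leaves no residual degree of freedom, so no such fit was run. The interaction stayed at 0; without the GW4064 array of experiment 1 the smallest adjusted p was 0.0678 and 2087 genes had an unadjusted p below 0.05. Of 755 values of 38 named genes, 748 kept their side of the threshold, 7 passed it in addition, and 0 reversed. A change of sign was counted as reversed only where the main difference exceeded its SE or an adjusted p was below 0.05. Smaller differences may therefore have changed sign among the 748. The mean of the 2 medians for genes glucagon lowered was 0.05146, and 0.04189 centred, 0.05512 with the 60th percentile, 0.06709 with the mean of probe sets and 0.07049 over all probe sets. Of the list medians 170 moved by less than the spread between experiments and 126 by more. A typical gene's 95% interval reached 0.399 to either side without the pairing and 0.325 with the block.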
